A study of Mus musculus with 6 samples.

Results

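The myosin heavy chain isoforms of striated muscle were followed in gastrocnemius, the large calf muscle of the mouse, after 12 weeks on a high or a normal phosphate diet. The genes taken were Myh1, Myh2, Myh3, Myh4, Myh7, Myh7b and Myh8, each matched by its symbol in the gene count table, which gave 7 of 47967 genes. All 7 passed the filter on low counts and were among the 15347 genes tested. RNA from male C57BL/6 mice aged 20 to 24 weeks was sequenced, with 3 libraries for the high phosphate diet (2.0% inorganic and 2.3% total phosphate) and 3 for the normal phosphate diet (0.6% inorganic and 0.9% total phosphate). Magnesium (0.3%), calcium (1.9%), potassium (1.8%) and sodium (0.9%) were the same in both diets, and no genetic change was part of the design. Whether the 3 libraries of a diet are 3 mice is not in the labels, so a p-value speaks of the spread among these libraries, which may be technical.

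Myosin heavy chains form the motor and the rod of the thick filament, and the isoform a fibre makes is a main determinant of how fast it shortens and how quickly it uses ATP. In adult mouse limb muscle, type I fibres carry Myh7, type IIa fibres Myh2, type IIx fibres Myh1 and type IIb fibres Myh4. The embryonic Myh3 and the perinatal Myh8 belong to developing and regenerating fibres. Myh7b is an ancient slow-type relative of Myh7, known from extraocular muscle and muscle spindles, and its gene hosts the microRNA miR-499.

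Libraries held 21856006 to 27474251 gene counts. The common biological coefficient of variation was 0.161, and edgeR's quasi-likelihood test called 49.3% of the genes tested at an adjusted p under 0.05, with 23% of them higher and 26.3% lower on the high phosphate diet. Normalization to library composition by trimmed mean of M values (TMM) put the median gene at a log2 fold change of -0.016, whereas scaling by library size alone put it at -0.49 and called 57.1% of genes, 5.72% higher and 51.4% lower. Counts of isoforms and of listed genes called stand beside these shares. The summed level of the 14 fast fibre genes listed, without myosin heavy chains, was 165132 to 201618 TMM-normalized CPM (counts scaled to effective library size) in high phosphate libraries and 77029 to 113198 CPM in normal phosphate libraries. The defining markers of fast skeletal muscle were thus abundant in every library, as the tissue label says. The 8 cardiac markers listed summed to 5.86 to 8.06 CPM in high phosphate and 6.47 to 15.7 CPM in normal phosphate libraries, and of them only Myl7 was at 0 in every library.

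Of the 7 isoforms, 3 were higher on the high phosphate diet (Myh4, Myh8 and Myh2), 1 was lower (Myh7) and 3 were not called (Myh1, Myh3 and Myh7b). That is 4 of 7 called, where 49.3% of all genes tested were called. Myh4 rose 3.16-fold and Myh7 fell to 0.325 of its normal phosphate level. In TMM-normalized CPM no overlap between the diets was seen in 6 of the 7, against 62.4% of all genes tested, and Myh1 was the exception. As a percent of all gene counts Myh2 overlapped too, with 0.104% to 0.162% in high phosphate and 0.0907% to 0.112% in normal phosphate libraries. In FPKM values Myh7b overlapped, with 0.309 to 0.955 FPKM in high phosphate and 0.774 to 1.51 FPKM in normal phosphate libraries. In a bulk muscle sample, fewer fibres of a type and less RNA per fibre cannot be told apart.

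**Figure D1:**
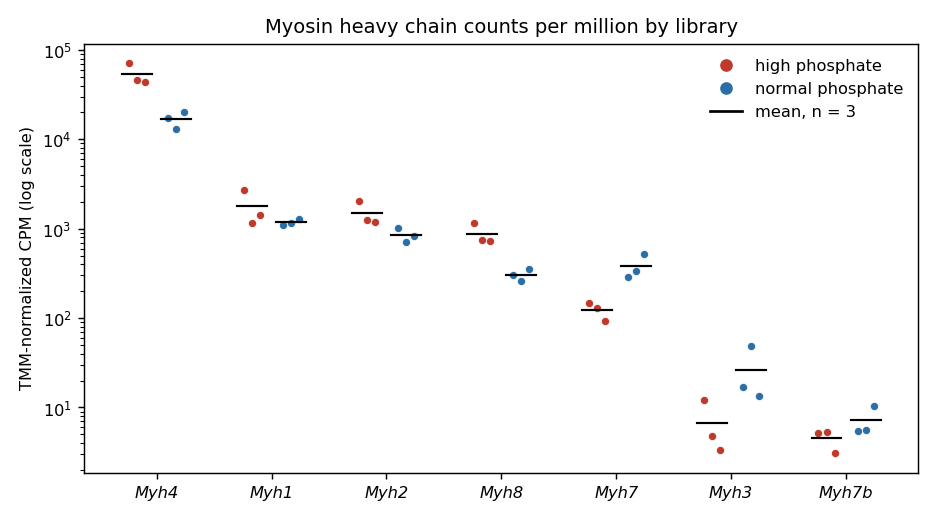
TMM-normalized CPM of the 7 isoforms in each library on a log axis, with high phosphate libraries (red) left of normal phosphate libraries (blue) and bars at the means of 3 libraries. Myh4 lies above the other isoforms in every library, at 43721.5 CPM or more in high phosphate libraries and at 20326 CPM or less in normal phosphate libraries, and Myh7 shows the opposite order of the diets.

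Myh4, which encodes the heavy chain of the fastest fibres (type IIb), had 70679, 45680.4 and 43721.5 CPM in the high phosphate libraries, against 17224.5, 13049 and 20326 CPM in the normal phosphate libraries. All 3 high phosphate libraries lay above the highest normal phosphate library, and high phosphate replicate 1 stood highest. The means were 53360.2 ± 15030.2 CPM on the high and 16866 ± 3652 CPM on the normal phosphate diet (SD, n = 3 each), a log2 fold change of 1.66 ± 0.31 (SE) with an adjusted p of 0.00252. The change was 1.18 with library size alone (adjusted p = 0.00152), where the median gene stood at -0.49, and on a log2(FPKM + 1) scale it was 1.203 (adjusted p = 0.00572) beside a median gene of -0.32.

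Myh8, the perinatal isoform, had 1153, 753 and 735 CPM in high phosphate libraries, against 301, 257 and 352 CPM in normal phosphate libraries. The groups did not overlap, and the order of the libraries within each diet was the same as for Myh4. It averaged 880.0 ± 236 CPM on the high and 304 ± 47.5 CPM on the normal phosphate diet (SD, n = 3 each), and rose by 1.54 ± 0.22 on the log2 scale (adjusted p = 0.00103). With library size alone the change was 1.05 (adjusted p = 0.00111).

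Myh2, the heavy chain of type IIa fibres, had 2033, 1240.05 and 1181 CPM in high phosphate libraries, against 1022, 706 and 824 CPM in normal phosphate libraries. The lowest high phosphate library stood just above the highest normal phosphate library. The means of 1485 ± 476 CPM on the high and 850.5 ± 159.6 CPM on the normal phosphate diet (SD, n = 3 each) gave a log2 fold change of 0.80 ± 0.25 with an adjusted p of 0.0257. This call depended on the scaling and on single libraries. With library size alone the change was 0.32 (adjusted p = 0.165), with log2(FPKM + 1) values it was 0.42 (adjusted p = 0.122), and without high phosphate replicate 1 it was 0.52 (adjusted p = 0.0961). Without normal phosphate replicate 2 it was 0.68 (adjusted p = 0.0626), and without normal phosphate replicate 3 it was 0.78 (adjusted p = 0.0679).

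Myh1, the heavy chain of type IIx fibres, had 2726, 1161 and 1441 CPM in high phosphate libraries, against 1104.5, 1155 and 1295 CPM in normal phosphate libraries. High phosphate replicate 1 stood far above the other libraries, and high phosphate replicate 2 lay among the normal phosphate values. The log2 fold change of 0.58 ± 0.30 did not pass the test (adjusted p = 0.132). Without high phosphate replicate 1 it was 0.15 (adjusted p = 0.598).

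Myh7, the slow heavy chain of type I fibres and a fetal isoform of the mouse ventricle, had 148, 131 and 93.2 CPM in high phosphate libraries, against 291, 335 and 519 CPM in normal phosphate libraries. Every high phosphate library lay below every normal phosphate library. The means were 124 ± 27.9 CPM on the high and 382 ± 121 CPM on the normal phosphate diet (SD, n = 3 each), and the gene fell by 1.62 on the log2 scale (SE 0.25, adjusted p = 0.00140). Scaled by library size alone the log2 fold change was -2.11 (adjusted p = 0.000439).

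The embryonic Myh3 had 12.1, 4.84 and 3.37 CPM in high phosphate libraries, against 16.9, 49.4 and 13.4 CPM in normal phosphate libraries. Behind these values were 65 to 263 counts in a high phosphate library and 367 to 1393 in a normal phosphate library. Normal phosphate replicate 2 stood far above the rest, and the groups did not overlap. The log2 fold change was -1.96 ± 0.69 with an adjusted p of 0.0577, which missed the threshold. It passed with library size alone (-2.52, adjusted p = 0.0170), with DESeq2 (-1.96, adjusted p = 0.0268), with a filter of 1 CPM (-1.98, adjusted p = 0.0442), with log2(FPKM + 0.1) values (-1.85, adjusted p = 0.0367) and without high phosphate replicate 1 (-2.68, adjusted p = 0.0347). Without normal phosphate replicate 2 it was -1.16 (adjusted p = 0.162).

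Myh7b, the least abundant member, had 5.22, 5.30 and 3.06 CPM in high phosphate libraries, against 5.44, 5.60 and 10.5 CPM in normal phosphate libraries. These values rested on 59 to 114 counts in a high phosphate library and 142 to 286 in a normal phosphate library, a counting error of 5.91% to 13.02%. The groups did not overlap, but the highest high phosphate library was close to the lowest normal phosphate library. The log2 fold change of -0.66 ± 0.31 did not pass the test (adjusted p = 0.103), although it did with library size alone (-1.14, adjusted p = 0.0117).

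Levels of different genes can be compared only per length. Per kilobase of annotated exon, TMM-normalized CPM on the high phosphate diet ran from Myh4 (8869.7 ± 2498) over Myh1 (279.6 ± 131), Myh2 (208 ± 66.7), Myh8 (74.8 ± 20.1), Myh7 (14.4 ± 3.24) and Myh3 (1.12 ± 0.767) to Myh7b (0.683 ± 0.191 CPM per kilobase, SD, n = 3). On the normal phosphate diet the order was Myh4 (2804 ± 607), Myh1 (186.5 ± 15.6), Myh2 (119 ± 22.4), Myh7 (44.3 ± 14.0), Myh8 (25.8 ± 4.04), Myh3 (4.39 ± 3.27) and Myh7b (1.08 ± 0.431 CPM per kilobase). By this measure Myh7 and Myh8 exchanged places: every high phosphate library had more Myh8 than Myh7 per kilobase, and every normal phosphate library more Myh7 than Myh8. The order depends on the length used. Annotated exons covered 8.62 kb for Myh7 and 11.8 kb for Myh8, whereas their coding lengths were 5805 and 5811 bases. In plain counts, normal phosphate replicate 1 had 7602 of Myh7 and 7868 of Myh8. Within the high phosphate diet the ranges of Myh1 (183 to 429 CPM per kilobase) and Myh2 (165 to 285 CPM per kilobase) overlapped, as did those of Myh3 (0.557 to 1.99) and Myh7b (0.462 to 0.799). In the deposited FPKM values, which also count per length, Myh4 averaged 5979 ± 1378 FPKM on the high and 2577 ± 433 FPKM on the normal phosphate diet. There Myh7 averaged 18.5 ± 3.61 FPKM on the high and 71.6 ± 28.2 FPKM on the normal phosphate diet, and Myh8 averaged 110.3 ± 25.7 FPKM on the high and 52.8 ± 9.06 FPKM on the normal phosphate diet. The means exchanged places there too, although normal phosphate replicate 1 had 42.8 FPKM of Myh7 and 47.9 FPKM of Myh8.

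Together the 7 isoforms took 6.10%, 4.26% and 4.16% of all gene counts in the high phosphate libraries, against 2.20%, 2.00% and 2.69% in the normal phosphate libraries. The groups did not overlap, and the mean share was 4.84% ± 1.09 on the high and 2.30% ± 0.358 on the normal phosphate diet (SD, n = 3 each), a ratio of 2.11. In summed TMM-normalized CPM the ratio was 2.94, and without Myh4 it was 1.55, from 4276 ± 1562 CPM in high phosphate and 2754 ± 254 CPM in normal phosphate libraries.

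Shares of the family's own counts do not depend on how libraries are scaled. Myh4 took 92.1%, 93.3% and 92.7% of them in high phosphate libraries, against 86.3%, 83.9% and 87.1% in normal phosphate libraries. The other adult isoforms took smaller shares on the high phosphate diet, and Myh8 kept close to its share. With 3 libraries against 3, a two-sided exact permutation test cannot give a p below 0.1, so none of these shares could pass 0.05.

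**Figure D2:**
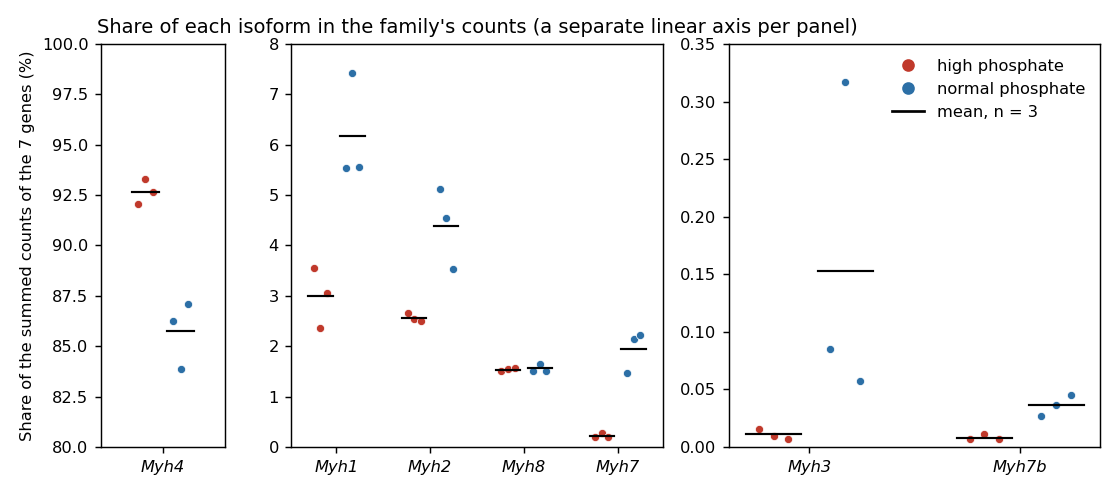
Share of each isoform in the summed counts of the 7 genes, in percent, for every library, with high phosphate (red) left of normal phosphate (blue) and bars at the means of 3 libraries. Each panel has its own linear axis, and the axis for Myh4 starts at 80%. Myh4 lies at 92.1% to 93.3% in high phosphate libraries and at 83.9% to 87.1% in normal phosphate libraries, whereas the shares of Myh8 overlap.

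The mean share of Myh4 was 92.7% ± 0.596 on the high and 85.7% ± 1.67 on the normal phosphate diet (SD, n = 3 each), higher by 6.93 percentage points (exact p = 0.1). Myh1 took 2.99% ± 0.594 on the high and 6.17% ± 1.09 on the normal phosphate diet, with 2.37% to 3.55% in high phosphate and 5.53% to 7.42% in normal phosphate libraries (exact p = 0.1). Its level was thus not called, while its share did not overlap between the diets. The share of Myh2 was 2.56% ± 0.0772 on the high and 4.39% ± 0.803 on the normal phosphate diet (exact p = 0.1), although its own level was called higher. Myh7 took 0.193%, 0.267% and 0.198% in high phosphate libraries, against 1.46%, 2.15% and 2.22% in normal phosphate libraries (exact p = 0.1), and it differed most in proportion among the 4 adult limb isoforms.

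Myh8 took 1.502%, 1.54% and 1.56% in high phosphate libraries, against 1.51%, 1.65% and 1.51% in normal phosphate libraries. The groups overlapped, and the difference of -0.0257 percentage points (exact p = 0.8) was smaller than the spread within the normal phosphate diet. It became 0.0225 percentage points without normal phosphate replicate 2. Myh3 took 0.00715% to 0.0157% in high phosphate and 0.0576% to 0.317% in normal phosphate libraries (exact p = 0.1). For Myh7b the range was 0.00649% to 0.0108% in high phosphate and 0.0272% to 0.0449% in normal phosphate libraries (exact p = 0.1). Taken from the deposited FPKM values, the share of Myh4 was 90.0% ± 0.677 on the high and 82.3% ± 1.88 on the normal phosphate diet, and that of Myh7 was 0.283% ± 0.0566 on the high and 2.26% ± 0.712 on the normal phosphate diet. Among Myh1, Myh2, Myh4 and Myh7 alone, Myh4 took 94.1% ± 0.622 on the high and 87.3% ± 1.502 on the normal phosphate diet.

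Ratios between isoforms were taken within each library. There were 478, 350 and 469 Myh4 counts per Myh7 count in high phosphate libraries, against 59.1, 39.0 and 39.2 in normal phosphate libraries. On the log2 scale the ratio was higher by 3.25 on the high phosphate diet (exact p = 0.1). Myh4 exceeded Myh2 by 34.8, 36.8 and 37.0 times in high phosphate libraries, against 16.9, 18.5 and 24.7 times in normal phosphate libraries. Against Myh1 the figures were 25.9, 39.4 and 30.3 in high phosphate and 15.6, 11.3 and 15.7 in normal phosphate libraries. The balance of Myh2 to Myh1 overlapped between the diets, with 0.746 to 1.07 Myh2 counts per Myh1 count in high phosphate and 0.611 to 0.925 in normal phosphate libraries (exact p = 0.3 on the log2 scale).

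Myh8, whose RNA was far less abundant, was also set against Myh4 directly. It stood at 1.63%, 1.65% and 1.68% of the Myh4 counts in high phosphate libraries, against 1.75%, 1.97% and 1.73% in normal phosphate libraries. The 6 libraries thus lay within a narrow band while Myh4 counts ran from 368307 to 1542449, and the groups did not overlap (exact p = 0.1). In FPKM values Myh8 was 1.83% to 1.85% of Myh4 in high phosphate and 1.95% to 2.14% in normal phosphate libraries.

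**Figure D3:**
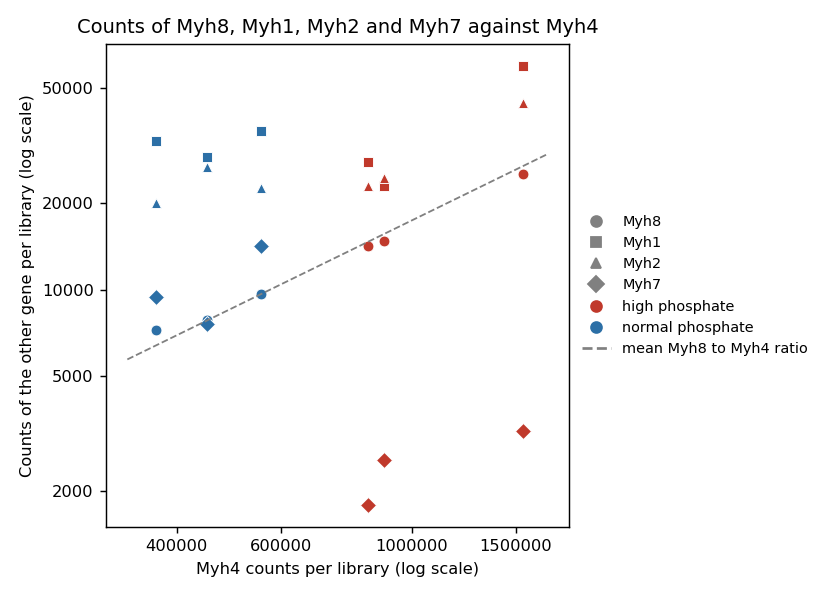
Counts of Myh8, Myh1, Myh2 and Myh7 in each library (vertical log axis) against its Myh4 counts (horizontal log axis), in red for the high and in blue for the normal phosphate diet. The dashed line is the mean ratio of Myh8 to Myh4. Myh8 follows that line from 368307 to 1542449 Myh4 counts, whereas Myh7 is lower in the high phosphate libraries, which hold the most Myh4.

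The isoforms share long stretches of sequence, which limits how reads can be told apart. Of the 50-base stretches of the annotated transcripts, 30.5% of those of Myh1 occur in transcripts of another gene as well, 24.6% of Myh2, 20.0% of Myh7, 18.9% of Myh4, 12.1% of Myh8, 4.76% of Myh3 and 0% of Myh7b. Myh4 shares 9.52% of its stretches with Myh8 and 10.6% with Myh1, while Myh7 shares 15.6% with the cardiac Myh6. The longest run of identical coding sequence between Myh4 and Myh8 is 164 bases, at coding bases 2953 to 3116 of Myh4 and 2950 to 3113 of Myh8. It lies in chromosome 11 exons that encode the rod and is shown because a read within it fits either gene, in GENCODE M21 letters:
Myh4 and Myh8: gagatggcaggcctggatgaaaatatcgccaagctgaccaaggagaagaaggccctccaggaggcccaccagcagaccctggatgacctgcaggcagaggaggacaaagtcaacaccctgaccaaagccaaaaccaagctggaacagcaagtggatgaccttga
How the authors' counting treated such reads is not given in the sources used here. The part of shared reads in the common movement of Myh4 and Myh8 was not tested.

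Myh3, Myh2, Myh1, Myh4 and Myh8 stand in this order on the plus strand of chromosome 11 (GRCm38, GENCODE M21), where Myh13, the extraocular heavy chain, follows. Myh3 covers chr11:67078300-67102291, Myh2 chr11:67171027-67197517, Myh1 chr11:67200052-67224575, Myh4 chr11:67238029-67260446 and Myh8 chr11:67277124-67308634. Myh2 and Myh1 lie 2.54 kb apart, Myh1 and Myh4 13.5 kb, and Myh4 and Myh8 16.7 kb, whereas 68.7 kb separate Myh3 from Myh2. Myh7 is on the minus strand at chr14:54970684-54994626, next to Myh6, and Myh7b is at chr2:155611212-155634307.

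Along the cluster, Myh4, Myh8 and Myh13 at its downstream end were called higher, and so was Myh2, whereas Myh1 between them was not called and Myh3 at the upstream end had a negative fold change that was not called. Myh13 had 122, 82 and 58 counts in high phosphate libraries, against 25, 25 and 38 counts in normal phosphate libraries. Its groups did not overlap, and it rose by 1.98 ± 0.30 on the log2 scale (adjusted p = 0.00117). These counts amounted to 0.00689% to 0.00915% of the Myh4 counts in high phosphate and 0.00556% to 0.00684% in normal phosphate libraries, and 2.03% of the 50-base stretches of Myh13 occur in Myh4 as well. The part of reads from Myh4 in the level of Myh13 was not tested.

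Among the noncoding genes within the cluster, the minus-strand lincRNA 2310065F04Rik, between Myh3 and Myh2, had 182, 230.1 and 343 CPM in high phosphate libraries, against 144, 65.8 and 147 CPM in normal phosphate libraries. It was called higher (1.08 ± 0.34, adjusted p = 0.0323). The call was lost with library size alone (0.65, adjusted p = 0.117), with log2(FPKM + 1) values (0.95, adjusted p = 0.0539) and without normal phosphate replicate 2 (0.79, adjusted p = 0.0513), high phosphate replicate 2 (1.16, adjusted p = 0.0569) or high phosphate replicate 3 (0.81, adjusted p = 0.0947). The antisense gene Myhas reaches from within Myh1 to just before Myh4, and had a log2 fold change of 0.37 ± 0.18 (adjusted p = 0.113). For 9430073C21Rik, antisense to the end of Myh2, it was -0.68 ± 0.37 (adjusted p = 0.156). The strand setting of the counting is not given in the sources used here, so reads of Myhas and Myh1, or of 9430073C21Rik and Myh2, cannot be told apart where they overlap, which is 8.11% of the exonic length of Myh1 and 3.32% of that of Myh2. Antisense genes cover 13.3% of the exonic length of Myh7. The microRNA Mir6923 within Myh3 had 0 counts in every library.

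**Figure D4:**
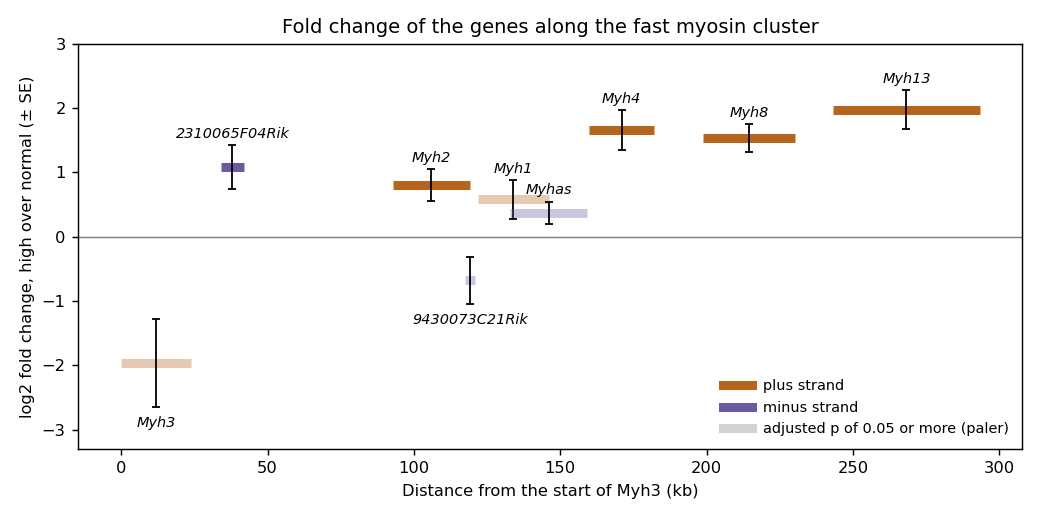
Log2 fold change, high over normal phosphate, with its SE for the genes of the fast myosin cluster, drawn at their distance in kilobases from the start of Myh3. Bars span each gene, in brown for the plus and violet for the minus strand, and are paler at an adjusted p of 0.05 or more. Myh4 (1.66), Myh8 (1.54) and Myh13 (1.98) lie at the downstream end and Myh3 (-1.96) at the upstream end.

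The start regions of the 4 fast and perinatal genes that lie next to each other are shown because these genes share a stretch of cluster and differ in response, with that of Myh7 as the isoform that fell. RefSeq promoters (GRCm38.p6, from 250 bases before to 50 bases after the start site) were found for all 7 isoforms. Capitals mark the letters TTCTAATTATATCC and TCAAATTAT, which were found by comparing these promoters with each other.
Myh2, chr11:67170777-67171076, plus strand: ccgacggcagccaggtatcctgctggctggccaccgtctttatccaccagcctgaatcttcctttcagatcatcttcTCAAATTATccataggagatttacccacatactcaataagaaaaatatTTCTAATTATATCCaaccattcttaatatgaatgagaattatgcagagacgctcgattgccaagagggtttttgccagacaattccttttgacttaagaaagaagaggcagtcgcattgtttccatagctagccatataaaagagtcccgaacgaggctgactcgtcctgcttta
Myh1, chr11:67199852-67200151, plus strand: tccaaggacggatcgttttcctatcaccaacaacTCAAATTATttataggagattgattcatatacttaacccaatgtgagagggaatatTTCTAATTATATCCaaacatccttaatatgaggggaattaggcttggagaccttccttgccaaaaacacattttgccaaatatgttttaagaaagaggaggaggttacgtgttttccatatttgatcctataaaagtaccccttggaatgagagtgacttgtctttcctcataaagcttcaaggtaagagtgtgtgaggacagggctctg
Myh4, chr11:67237562-67237861, plus strand: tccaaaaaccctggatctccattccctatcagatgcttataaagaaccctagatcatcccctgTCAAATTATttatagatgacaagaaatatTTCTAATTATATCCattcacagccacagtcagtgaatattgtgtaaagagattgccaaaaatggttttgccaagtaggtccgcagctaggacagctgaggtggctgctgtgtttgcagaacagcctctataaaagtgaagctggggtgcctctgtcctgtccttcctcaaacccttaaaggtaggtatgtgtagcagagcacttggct
Myh8, chr11:67276874-67277173, plus strand: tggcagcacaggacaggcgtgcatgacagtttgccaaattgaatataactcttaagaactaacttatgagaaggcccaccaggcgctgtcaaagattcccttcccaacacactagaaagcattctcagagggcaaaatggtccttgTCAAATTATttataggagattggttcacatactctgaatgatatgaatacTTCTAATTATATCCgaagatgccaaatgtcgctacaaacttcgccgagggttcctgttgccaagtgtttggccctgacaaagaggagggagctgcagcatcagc
Myh7, chr14:54994577-54994876, minus strand: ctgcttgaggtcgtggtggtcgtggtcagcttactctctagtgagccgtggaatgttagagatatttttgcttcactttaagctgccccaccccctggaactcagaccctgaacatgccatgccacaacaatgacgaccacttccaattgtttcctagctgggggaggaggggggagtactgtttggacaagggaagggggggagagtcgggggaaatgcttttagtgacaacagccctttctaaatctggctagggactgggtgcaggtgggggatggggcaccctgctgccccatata
TTCTAATTATATCC occurred on either strand in 4 of 32817 promoters of the same length (0.0122%), those of Myh2, Myh1, Myh4 and Myh8. It began at position -125 from the start site in Myh2, -160 in Myh1, -158 in Myh4 and -54 in Myh8. TCAAATTAT occurred in 59 promoters (0.180%) and lay upstream of the longer run in all 4, at -173 in Myh2, -216 in Myh1, -187 in Myh4 and -104 in Myh8. Neither is in the windows of Myh3, Myh7 or Myh7b. RefSeq and GENCODE place the start of Myh1, of Myh4 and of Myh7b at different bases. RefSeq gives a second start for Myh7 inside the gene, whose window chr14:54994500-54994799 is not shown and holds no CATTCC. The window shown has the same start as the GENCODE gene.

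Known muscle motifs were searched on both strands. The E-box CANNTG, which myogenic factors such as MYOD1 bind, was in 72.3% of all promoters, with 3 in Myh4, 2 in Myh8 and 0 in Myh1 and Myh2. The MCAT element CATTCC, bound by TEAD factors, was in 14.7% of all promoters and in those of Myh1, Myh4 and Myh7. The MEF2 element was in 3.19% of all promoters and in those of Myh1, Myh4 and Myh8, and TATAAA was in 13.6% of all and in those of Myh1, Myh2, Myh3, Myh4 and Myh8. The shared runs thus stand in genes that were called higher and in Myh1, which was not called, and a match of letters does not show that a factor binds there.

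The other class II myosin heavy chains include nonmuscle, smooth muscle, cardiac and extraocular forms. Of 7 listed, 6 were tested, 2 were higher (Myh13 and Myh14), 1 was lower (Myh9) and 3 were not called, with a median log2 fold change of 0.19 beside -0.016 over all genes tested. Scaling by library size alone gave 2 higher and 3 lower (Myh9, Myh10 and Myh11), with a list median of -0.29. Myh14, a nonmuscle heavy chain (IIC), had 73.5, 61.8 and 52.0 CPM in high phosphate libraries, against 19.6, 15.8 and 21.8 CPM in normal phosphate libraries (1.71 ± 0.16, adjusted p = 0.000265). Myh9, the nonmuscle heavy chain IIA, averaged 136 ± 10.4 CPM on the high and 221 ± 46.4 CPM on the normal phosphate diet (-0.70 ± 0.16, adjusted p = 0.00720). Myh11, the smooth muscle heavy chain, averaged 88.8 ± 11.6 CPM on the high and 92.9 ± 8.93 CPM on the normal phosphate diet, and its groups overlapped (-0.066 ± 0.13, adjusted p = 0.693). Scaled by library size alone it was called at -0.54 (adjusted p = 0.0207), where the median gene stood at -0.49. Myh6, the heavy chain of the adult mouse heart, had 32, 26 and 21 counts in high phosphate libraries, against 24, 27 and 27 counts in normal phosphate libraries (0.44 ± 0.26, adjusted p = 0.178). Its deposited FPKM values ran the other way, at 2.31, 2.08 and 1.42 FPKM in high phosphate and 5.62, 7.08 and 9.32 FPKM in normal phosphate libraries (-1.49 on the log2(FPKM + 1) scale, adjusted p = 0.00405), and 20.2% of its 50-base stretches occur in Myh7.

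Myosin heavy chains need dedicated chaperones to fold and are removed by muscle ubiquitin ligases. Of 10 such genes, 8 were higher (against 23% of all genes tested), 0 were lower and 2 were not called. Their median log2 fold change was 0.996 beside -0.016 over all genes tested. Unc45b, the myosin chaperone of striated muscle, had 394, 412 and 347 CPM in high phosphate libraries, against 169, 127 and 180.05 CPM in normal phosphate libraries (1.28 ± 0.17, adjusted p = 0.000721). Smyd1, a methyltransferase needed for thick filament assembly, averaged 880.4 ± 207 CPM on the high and 439.9 ± 77.4 CPM on the normal phosphate diet (1.001 ± 0.22, adjusted p = 0.00512). Hsp90ab1, a chaperone that works with Unc45b, rose by 0.99 ± 0.17 (adjusted p = 0.00202). The ubiquitin ligase gene Fbxo32 had 545, 1436 and 846 CPM in high phosphate libraries, against 246, 157 and 125 CPM in normal phosphate libraries (2.42 ± 0.39, adjusted p = 0.00198). Trim54 (1.52 ± 0.18, adjusted p = 0.000501) and Trim55 (0.92 ± 0.18, adjusted p = 0.00336), of the MURF family found at the sarcomere, rose as well. With library size alone 7 of the 10 were higher (against 5.72% of all genes tested) and 1, Unc45a, was lower (against 51.4%).

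Thick filament partners include the light chains, myosin-binding proteins and kinases. Of 18 listed, 16 were tested. Of these, 8 were higher (against 23% of all genes tested), 2 were lower (against 26.3%) and 6 were not called, with a median log2 fold change of 0.67. When scaled by library size alone, 6 were higher (against 5.72% of all genes) and 4 were lower (Myl2, Myl3, Myl4 and Myom3, against 51.4%). The list median was then 0.17 beside -0.49 over all genes. Mybpc2, the fast myosin-binding protein C, had 10203, 7785 and 7619 CPM in high phosphate libraries, against 2688, 1956 and 2533 CPM in normal phosphate libraries (1.84 ± 0.23, adjusted p = 0.000678). Mylk2, the skeletal light chain kinase, averaged 1424 ± 127 CPM on the high and 447 ± 123 CPM on the normal phosphate diet (1.67 ± 0.23, adjusted p = 0.000882). Mylk4, a related kinase, rose by 2.10 ± 0.39 (adjusted p = 0.00313). Myl2, the slow regulatory light chain, averaged 198 ± 46.6 CPM on the high and 468 ± 102.7 CPM on the normal phosphate diet (-1.24 ± 0.22, adjusted p = 0.00229). Myl4, the atrial and embryonic light chain, averaged 11.2 ± 5.45 CPM on the high and 58.6 ± 22.4 CPM on the normal phosphate diet (-2.38 ± 0.42, adjusted p = 0.00453).

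Genes of the slow and fast fibre programmes outside the heavy chains were counted next. Of 13 slow fibre genes, 0 were higher, 9 were lower (against 26.3% of all genes tested) and 4 (Ankrd2, Csrp3, Myl3 and Myoz2) were not called. The median log2 fold change of the list was -1.06. With DESeq2, a replicate block or an adjusted p under 0.1, 1 slow fibre gene was called higher. The same count was found without normal phosphate replicate 1 and without high phosphate replicate 3. Tnni1, the slow troponin I, had 59.0, 73.1 and 49.5 CPM in high phosphate libraries, against 165, 157 and 249.6 CPM in normal phosphate libraries (-1.66 ± 0.21, adjusted p = 0.000739). The slow troponins Tnnc1 (-1.61 ± 0.20, adjusted p = 0.000629) and Tnnt1 (-1.49 ± 0.21, adjusted p = 0.000883) had fold changes near that of Myh7. Sln, an inhibitor of the SERCA calcium pump, had 4.95, 2.60 and 6.91 CPM in high phosphate libraries, against 165, 281 and 100.4 CPM in normal phosphate libraries (-5.24 ± 0.53, adjusted p = 0.000814). Of 14 fast fibre genes, 11 were higher (against 23% of all genes tested), 0 were lower and 3 were not called, with a median of 0.97. Actn3, the alpha-actinin of fast fibres, averaged 12199 ± 1833 CPM on the high and 4553 ± 1014 CPM on the normal phosphate diet (1.42 ± 0.25, adjusted p = 0.00220). Atp2a1, the fast SERCA pump, rose by 1.25 ± 0.26 (adjusted p = 0.00409). With library size alone, 11 slow genes were lower (against 51.4% of all genes tested) and 7 fast genes were higher (against 5.72%).

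**Figure D5:**
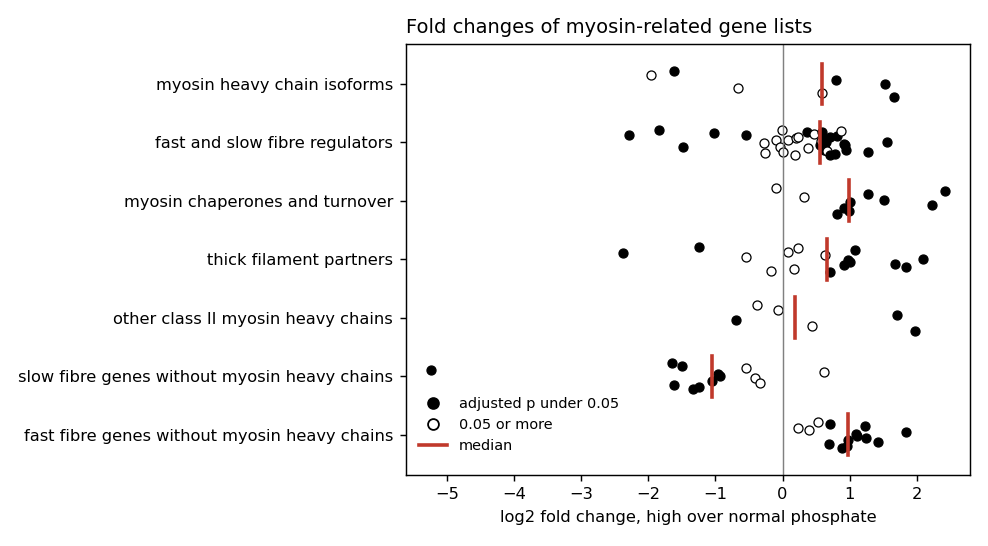
Log2 fold change, high over normal phosphate, of each tested gene of the myosin heavy chain family and of 6 related lists, with filled points at an adjusted p under 0.05, open points at 0.05 or more and red bars at the medians. The slow fibre list has a median of -1.06 and the fast fibre list of 0.97, and the isoforms are spread over both sides of 0.

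Regulators that set fibre type were counted from a list of 37 genes, all of them tested. With 17 higher (against 23% of all genes tested), 5 lower (against 26.3%) and 15 not called, their median log2 fold change was 0.56. With library size alone 4 were higher (against 5.72%) and 10 lower (against 51.4%), with a median of 0.088 beside -0.49 over all genes. The balance of calls thus depends on the scaling. Prox1, a transcription factor of slow fibres, had 2.25, 2.60 and 2.65 CPM in high phosphate libraries, against 7.09, 10.4 and 9.48 CPM in normal phosphate libraries (-1.85 ± 0.20, adjusted p = 0.000372). Dio2, which activates thyroid hormone, averaged 4.33 ± 1.6 CPM on the high and 21.04 ± 6.38 CPM on the normal phosphate diet (-2.29 ± 0.31, adjusted p = 0.00116). Nfatc4, of the calcineurin-dependent factors, fell by 1.02 on the log2 scale (SE 0.17, adjusted p = 0.00173). Nfatc2, of the same family, was also lower, whereas Nfatc1 was higher and Nfatc3 was not called. Mef2a, Mef2c, Mef2d and Ppard were among the regulators called higher. With library size alone Nfatc1, Mef2a, Mef2c, Mef2d and Ppard were not called. Esrrb, an oestrogen-related receptor, averaged 8.90 ± 2.18 CPM on the high and 3.02 ± 0.651 CPM on the normal phosphate diet (1.56 ± 0.24, adjusted p = 0.00117).

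Tbx15, found in fast glycolytic fibres, rose by 0.93 ± 0.21 (adjusted p = 0.00621), and Sox6, a repressor of slow fibre genes, by 0.81 ± 0.20 (adjusted p = 0.00834). Sox6 was not called with library size alone (0.35, adjusted p = 0.0815), and with log2(FPKM + 1) values neither Tbx15 (0.40, adjusted p = 0.0793) nor Sox6 (0.25, adjusted p = 0.561) was called. Ppargc1a, the coactivator of the oxidative programme, had 94.0, 243 and 107 CPM in high phosphate libraries, against 145, 35.6 and 61.0 CPM in normal phosphate libraries, and the groups overlapped (0.88 ± 0.62, adjusted p = 0.279). Without normal phosphate replicate 1 it was called higher (1.62, adjusted p = 0.0463).

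Markers of other cell types also differed between the diets. All 10 fibroblast markers, all 8 endothelial and all 8 B cell markers were lower on the high phosphate diet. So were 9 of 10 white adipocyte and 9 of 10 macrophage markers, against 26.3% of all genes tested. The other adipocyte and macrophage marker was higher, Plin4 and Cd163. Fibroblast markers summed to 2461 to 2755 CPM in high phosphate and 5096 to 12412 CPM in normal phosphate libraries, and white adipocyte markers to 983 to 1560.5 CPM in high phosphate and 2623 to 3344 CPM in normal phosphate libraries. For macrophages the sums were 393 to 582 CPM in high phosphate and 1041 to 1976 CPM in normal phosphate libraries, for endothelium 507 to 686 CPM in high phosphate and 887 to 1048 CPM in normal phosphate libraries, and for B cells 1.10 to 2.44 CPM in high phosphate and 11.4 to 77.8 CPM in normal phosphate libraries. No marker of these lists was at 0 in every library. The B cell sums were near the floor on the high phosphate diet. The filter on low counts could keep such genes through the normal phosphate libraries alone, so their count is a description only. With an FPKM of at least 0.5 required, 3 of the 8 B cell markers were tested, and these 3 were lower. Without normal phosphate replicate 2, 7 of the 8 were lower. Of 10 markers of smooth muscle and pericytes, 1 was higher (Des, which striated muscle also makes) and 2 were lower (Cspg4 and Pdgfrb), with a median log2 fold change of -0.12, and with library size alone 1 was higher and 7 were lower. They had sums of 5592 to 5633 CPM in high phosphate and 3083 to 3676 CPM in normal phosphate libraries. These sums include Des, so they do not measure smooth muscle and pericytes alone. Of 8 Schwann cell markers 1 was lower, with sums of 241 to 357 CPM in high phosphate and 259 to 324 CPM in normal phosphate libraries. Their part in the levels of the isoforms was not tested. The shares within the family are taken over the 7 isoforms alone.

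Myh3 and Myh8 mark immature fibres, and the 10 genes found of a list of 12 for regenerating or immature fibres were set beside them. Of these 10, 5 were lower (Chrna1, Chrng, Myl4, Myog and Pax7), against 26.3% of all genes tested, and 1 was higher (Cdh15), against 23%. The other 4 were not called, and the median log2 fold change of the 10 was -0.59. Their summed level was 139 to 893 CPM in high phosphate and 428 to 702 CPM in normal phosphate libraries, so the groups overlapped. Myh3 lay on the side of the 5 lower genes without passing the test, whereas Myh8 was called higher. The part of regenerating fibres in these levels was not tested.

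The genes most like each isoform were taken from 8765 genes of at least 10 CPM on average, by Pearson correlation of log2 CPM over the 6 libraries, which is a description and carries no test. For Myh4 these were Eif5b (r = 0.999), Dnajc11 (0.999) and Rnf6 (0.998), and for Myh8 they were Polrmt (0.999), Tnpo2 (0.998) and Tnks2 (0.998). Myh2 was closest to Pgk1 (0.997), Rpa2 (0.995) and Pon3 (0.994), and Myh7 to Dll4 (0.995), Idh1 (0.985) and Exosc8 (0.983). Myh1 was closest to Dync1li2 (0.988), Dnajc5 (0.988) and Hps5 (0.985), Myh3 to Ifit2 (0.991), Bst2 (0.988) and Ncstn (0.987), and Myh7b to Chuk (0.993), Aldh1l1 (0.972) and Dnajc14 (0.966). The likeness is of pattern and not of size: Eif5b averaged 158 ± 14.6 CPM on the high and 99.4 ± 8.92 CPM on the normal phosphate diet, a log2 fold change of 0.67 where that of Myh4 was 1.66. All these correlations share the 6 libraries, their diets and their scaling.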

How the data were processed

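RNA was extracted with TRIzol and sequenced from Illumina libraries, per the labels' protocols. The authors deposited raw whole-number counts by Ensembl identifier, and, for these libraries, FPKM values (scaled to gene length and mapped fragments). The submitters' processing notes list, without roles, featureCounts 1.4.6, HISAT2 2.0.1, Trim Galore 0.4.1 and DESeq2 1.6.3, and the build GRCm38. How FPKM values were made, the strand setting and the annotation release were not given in the sources used here.

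Genes were tested on the counts with edgeR 4.0.16 (quasi-likelihood F test, robust, TMM, filterByExpr, R 4.3.3), and p-values were adjusted by Benjamini-Hochberg over 15347 genes. Calls were made below 0.05. An SE is the fold change over the square root of F. TMM factors were 0.849 ± 0.0473 on the high and 1.18 ± 0.0955 on the normal phosphate diet, so the scaling moves with diet. Shares and ratios were compared by two-sided exact permutation tests (scipy 1.17.1). The precision of a count is limited by counting error, from 0.0805% (Myh4) to 13.02% (Myh7b). Between replicates of a diet chi-square per degree of freedom was 18.1 to 58.0, where copies would be near 1. Positions, exonic lengths and shared 50-base stretches came from GENCODE M21, promoters from RefSeq. Scripts were tested on simulated data.

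Members and gene lists were chosen with earlier results of these data known. Named were all 7 isoforms, the genes within their cluster, up to 5 called genes by smallest p from each list, the 3 genes most like each isoform (log2 CPM, prior count 2) and 10 genes named singly, of which Myh13 lies outside the cluster span. The values of 1 of these genes are not reported here. Of the 12 genes listed for immature fibres, 10 were found by symbol. Alternatives were library size alone, DESeq2-style size factors, TMM leaving out 50 abundant genes, a minimum of 1 CPM in 3 libraries or no filter, a replicate block, DESeq2 1.42.0, limma-voom, limma 3.58.1 on log2 FPKM with pseudocounts of 1 and 0.1 (FPKM of at least 0.5 in 3 libraries, or no filter), scaling by the summed counts of the 7 isoforms, an adjusted p under 0.1 and leaving out each library.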

Additional observations from a re-analysis of the deposited data

How the results depend on the processing

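Myh4, Myh8 and Myh7 kept their direction and their call under every filter, tool and left-out library tried. They also did so under every scaling but that by the 7 isoforms' own sum. There Myh4 and Myh8 were not called and Myh8 changed sign, while Myh7 stayed called lower. That scaling turned the log2 fold changes of Myh1 (-1.04), Myh2 (-0.78) and Myh8 (-0.024) negative, because it gives changes in share. With library size alone 878 genes were higher and 7886 lower, and 3 isoforms were lower. With a filter of 1 CPM, DESeq2, log2(FPKM + 0.1), an adjusted p under 0.1 or without high phosphate replicate 1, 2 isoforms were lower, against 1 in the test reported. Scaled by their own sum 5 isoforms were lower, but so were 91.7% of all genes tested. With FPKM values 760 (pseudocount 1), 766 (0.1) and 566 (no filter) genes were higher, and without the filter 35 list genes were called, against 60. Per exonic length the share of Myh7 differed by -1.24 instead of -1.73 percentage points. Leaving out single libraries, the number of lower isoforms ran from 1 to 2, the difference in the Myh8 share from -0.0500 to 0.0225 and the log2 fold change of Myh11 from -0.14 to 0.049. Signs turned with library size alone, log2(FPKM + 1) with or without filter, and log2(FPKM + 0.1) in this order for Dync1li2 (-0.34, -0.30, -0.32), Dnajc5 (-0.43, -0.45, -0.48), Hps5 (-0.32, -0.13, -0.16), Dnajc11 (-0.065, -0.090, -0.096), Myh6 (-0.042, -1.49, -1.86) and Myhas (-0.0998, -0.52, -0.53). They turned with library size alone for Rpa2 (-0.14) and Tnpo2 (-0.077), and with FPKM for 9430073C21Rik (0.054 and 0.055). Beyond the scaling, the cause was not tested. With the replicate number as a replicate block 7328 genes and the 4 isoforms were called. What the numbers stand for is not in the labels. Same-numbered libraries deviated together with r of -0.0215 to 0.0223, and whether they share a batch was not tested. Among the 7 isoforms counting error was at most 13.02% (Myh7b), and Myh3 and Myh7b rested on 59 to 1393 counts a library.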
